A study of Homo sapiens with 4 samples.

Results

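The cornified envelope is the shell of cross-linked protein and lipid that replaces the plasma membrane of squamous cells as they reach the surface of an epithelium. The genes described here are 45 named genes of that envelope and of late squamous differentiation, with keratins left out. They were taken by name, and each was read through probe sets annotated to exactly 1 gene. Of the 45 genes, 43 were measured, out of 19752 genes in all, through 69 probe sets. SERPINB2 and SPINK5 had no such probe set. Of the measured genes, 13 had more than 1 probe set, and the brightest stood for the gene.

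The cells were KYSE170, an established human line of esophageal squamous cell carcinoma. One group of 2 arrays came from cells given ethyl-3,4-dihydroxybenzoate (EDHB) at 50 µg/ml for 12 h, and the other group of 2 arrays came from untreated cells. All cells were grown in RPMI medium with fetal bovine serum, and the labels name no vehicle for the untreated cells. The question set by the labels is how EDHB alters the expression profile of this line. No label tells whether replicates 1 and 2 were grown apart. Each p-value is thus set against the spread between arrays alone, which may be technical, and all results are of a single line.

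In stratified squamous epithelium, cells leaving the basal layer make involucrin, periplakin and envoplakin, then small proline-rich proteins and loricrin, and transglutaminases join these into the envelope. S100 proteins and cystatins are abundant in the same cells, and kallikreins later cut the junctions that hold the outermost cells, under the control of protease inhibitors. EDHB inhibits prolyl hydroxylases, the oxygen-dependent enzymes that mark hypoxia-inducible factor for breakdown.

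Levels are log2 values of the deposited intensities. A level is compared only between arrays for the same probe set, since probes differ in brightness. The median over all probe sets, a log2 level of 4.55, serves as a marker of measurability, and levels of genes under it are not shown to be above background. Median intensities of the arrays ran from 23.3 to 23.5. The replicate 2 columns stood in another row order than their probe set names, and 54467 of 54613 probe sets could be put back in order, among them all 69 used here. This restoration is an inference from the values.

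The promoters of 4 of the genes are shown first because they hold, or lack, the letters bound by AP-1, a transcription factor family long linked to squamous differentiation genes. Involucrin (IVL), SPRR1A and SPRR1B encode envelope precursors, and LYPD3 had the largest change among the 43 genes. Each window runs from 250 bases before to 50 bases after the gene's start, in RefSeq sequence of build GRCh38.p14, 5′ to 3′ on the gene's strand. Capitals mark TGANTCA, which reads the same on both strands. The windows are IVL at chr1:152908296-152908595 (plus strand), SPRR1A at chr1:152983831-152984130 (plus strand), SPRR1B at chr1:153030953-153031252 (plus strand) and LYPD3 at chr19:43465559-43465858 (minus strand).
IVL: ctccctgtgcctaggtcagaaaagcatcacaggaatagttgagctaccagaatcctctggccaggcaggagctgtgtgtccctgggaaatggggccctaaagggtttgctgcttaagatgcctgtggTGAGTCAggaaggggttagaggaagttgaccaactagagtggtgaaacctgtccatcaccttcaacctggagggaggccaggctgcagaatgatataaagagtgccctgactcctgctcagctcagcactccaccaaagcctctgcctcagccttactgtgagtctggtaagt
SPRR1A: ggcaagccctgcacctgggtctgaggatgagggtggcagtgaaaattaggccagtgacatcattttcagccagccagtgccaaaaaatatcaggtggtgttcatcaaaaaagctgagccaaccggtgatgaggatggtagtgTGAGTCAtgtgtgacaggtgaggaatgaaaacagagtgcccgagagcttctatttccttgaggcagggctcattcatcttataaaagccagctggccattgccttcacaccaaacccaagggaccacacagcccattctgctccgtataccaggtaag
SPRR1B: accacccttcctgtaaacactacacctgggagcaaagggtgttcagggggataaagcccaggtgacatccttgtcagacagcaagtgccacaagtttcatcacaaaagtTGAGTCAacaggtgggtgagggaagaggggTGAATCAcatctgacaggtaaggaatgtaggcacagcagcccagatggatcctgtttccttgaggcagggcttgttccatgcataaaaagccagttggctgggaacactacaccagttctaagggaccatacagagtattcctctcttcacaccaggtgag
LYPD3: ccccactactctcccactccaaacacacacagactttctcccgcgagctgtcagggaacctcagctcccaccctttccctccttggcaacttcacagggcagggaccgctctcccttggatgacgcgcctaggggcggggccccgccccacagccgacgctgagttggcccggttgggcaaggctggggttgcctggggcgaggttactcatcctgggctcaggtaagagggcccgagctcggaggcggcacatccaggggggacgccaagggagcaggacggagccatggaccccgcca
The AP-1 letters began at base -123 of IVL, at base -108 of SPRR1A and at bases -141 and -111 of SPRR1B, counted from the start. The LYPD3 window held neither them nor ACGTG or GCGTG, the core letters bound by hypoxia-inducible factor, on either strand.

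Across the genes with a promoter window, AP-1 letters stood in 14 of 44 windows (31.8%), against 7.71% of all 35116 windows. The 44 windows belong to 36 of the 45 genes, some with more than 1 start. The hypoxia core letters stood in 16 of the 44 windows (36.4%), against 48.4% of all windows. GGAAGT, the core letters of the ETS factor family, stood in 18.2% of the 44 windows, IVL among them, against 22.8% of all windows. CCACCC, those of the KLF family, stood in 52.3%, against 34.3% of all windows. The SPRR1A, SPRR1B and LYPD3 windows held CCACCC or its reverse complement. A match describes letters and is no evidence of binding. Of the genes with AP-1 letters, 13 were measured, and their median log2 change with EDHB was 0.07. The 21 measured genes whose windows lacked the letters had a median of 0.04. Only 6 of the 13 and 9 of the 21 had a mean level above the median probe set, so both medians include many dim genes. IVL, SPRR1A and SPRR1B are described with the envelope proteins, and LYPD3 with the membrane proteins.

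None of the 43 genes passed an adjusted p of 0.05 in limma's test over all genes, beside 2 of 19752 genes (0.0101%), and none passed with a variance prior that follows intensity, beside 2.4% of all genes. No member changed 2-fold or more, beside 0.248% of all genes, a share that lacks the probe sets not put back in order. The log2 changes, EDHB minus untreated, ran from -0.33 to 0.56 with a median of 0.04, and the median over all genes was -0.001. They were above 0 for 25 of the 43 genes, beside 49.4% of all genes. At an unadjusted p under 0.05 there were 4 of the 43 genes (LYPD3, CSTA and FLG higher with EDHB, SPRR1A lower), beside 16.9% of all genes, of which 8.86% were higher and 8.05% lower. For 42 of the 43 genes the 95% interval of the change lay within 2-fold in both directions, S100A8 being the exception. This held for 19505 of all 19752 genes. A p over the threshold does not show that a level stayed the same, and these intervals are the limit that 2 arrays per group allow.

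Both EDHB arrays lay above both untreated arrays for 11 of the 43 genes, beside 23.3% of all genes. Both EDHB arrays lay below both untreated arrays for 5 genes, beside 22.6% of all genes. In either direction this made 16 of 43 genes, beside 45.8% of all genes. The share of separated genes among the members is therefore near the background for higher levels and under it for lower levels. For 33 of the 43 genes (76.7%), the gap between the 2 arrays of a group was larger than the change, and this held for 64.6% of all genes.

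**Figure D1:**
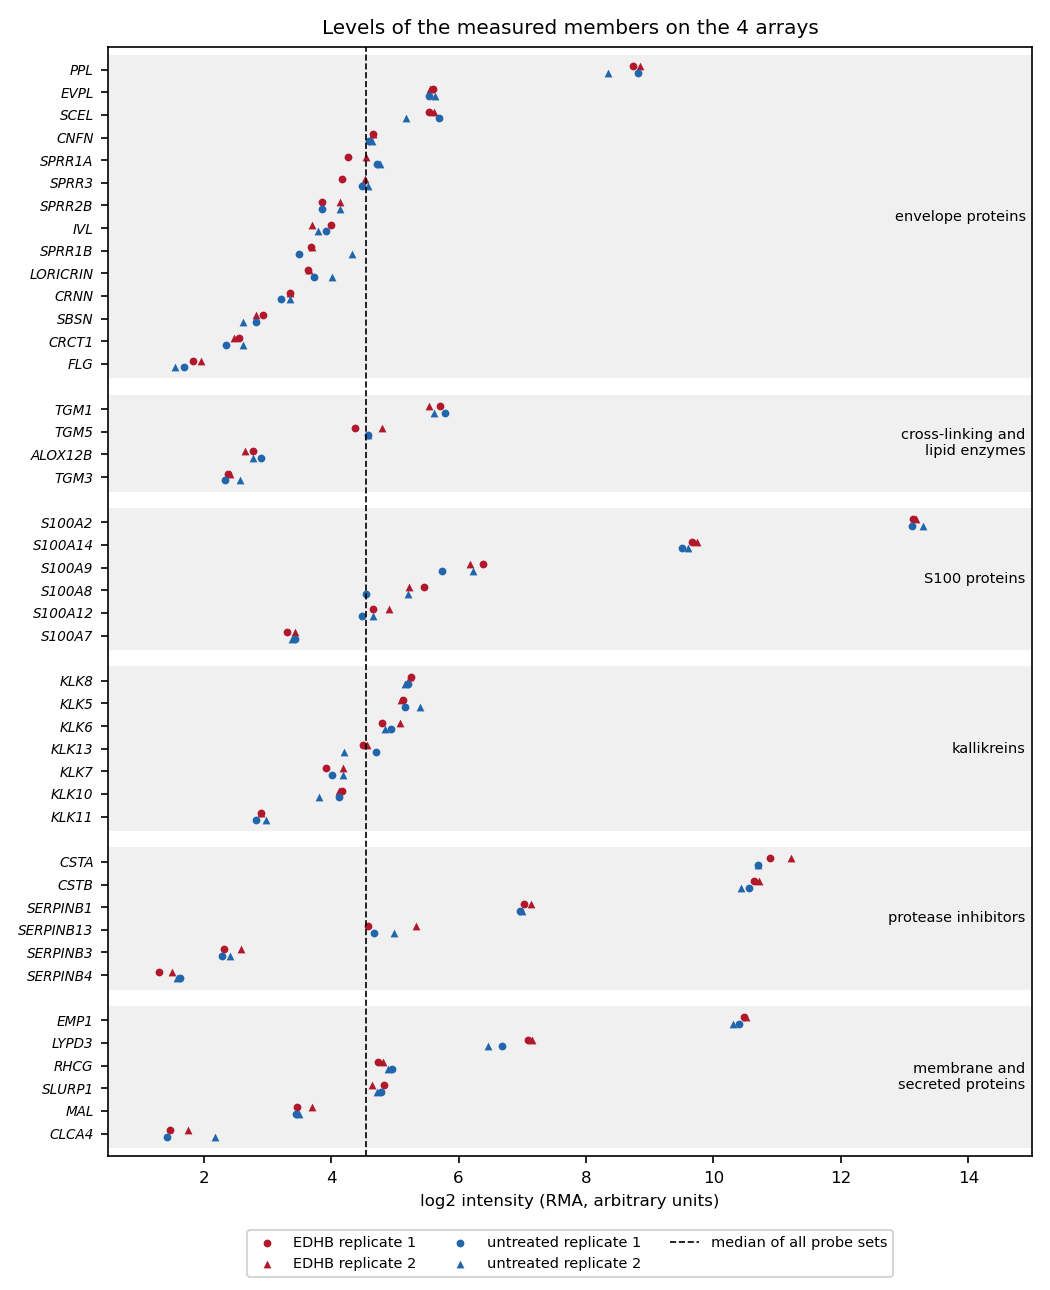
Log2 intensity of each measured gene on each of the 4 arrays, EDHB and untreated, with genes grouped by role and a line at the median probe set (4.55). Most genes have EDHB and untreated points that interleave, while LYPD3 and CSTA have both EDHB points above both untreated points; heights of different genes are not amounts of transcript.

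Of the 43 genes, 23 had a mean level over the arrays above the median probe set, beside 62.7% of all genes, and 20 lay under it, 18 of these on all 4 arrays. The 23 measurable genes had a median log2 change of 0.11, with 0.06 within replicate 1 and 0.14 within replicate 2. The 20 dim genes had a median change of -0.005, and they include involucrin, loricrin and filaggrin. In such bulk samples, fewer cells of a type and less RNA per cell cannot be told apart.

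The envelope proteins were 14 of the 43 genes, with a median log2 change of 0.01 and a range from -0.33 to 0.27. In the mean over the arrays, 5 of the 14 stood above the median probe set. These were the plakins periplakin and envoplakin, sciellin, cornifelin and SPRR1A. For SPRR1A only the untreated mean was above it, at 4.41 in EDHB cells and 4.74 in untreated cells. The best known envelope precursors lay under it in both groups.

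Periplakin (PPL), which tethers keratin filaments to the envelope, had log2 levels of 8.73 and 8.84 in EDHB cells, against 8.81 and 8.35 in untreated cells. The groups overlapped, and untreated replicate 2 was the lowest array. The change was 0.21 ± 0.17 (SE, n = 2 arrays each), with limma's adjusted p at 0.604. Within replicate 1 the change was -0.08 and within replicate 2 it was 0.49. Its partner envoplakin (EVPL) had 5.60 and 5.55 in EDHB cells, against 5.54 and 5.63 in untreated cells, and both EDHB arrays lay between the untreated arrays. Sciellin (SCEL), an envelope precursor, had 5.53 and 5.62 in EDHB cells, against 5.69 and 5.18 in untreated cells. The arrays of SCEL stood in the same arrangement. A second SCEL probe set, under the median probe set, had 3.52 and 3.46 in EDHB cells, against 3.13 and 2.93 in untreated cells. The changes of the 4 SCEL probe sets ran from -0.15 to 0.46, the second having the largest.

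SPRR1A, a small proline-rich protein cross-linked into the envelope, was the member with the most negative change. Its log2 levels were 4.27 and 4.55 in EDHB cells, against 4.71 and 4.77 in untreated cells. Both EDHB arrays were lower. The change was -0.33 ± 0.12 (SE, n = 2 arrays each; 95% interval -0.63 to -0.03), with limma's adjusted p at 0.259, and it was -0.19 without EDHB replicate 1. A dimmer SPRR1A probe set ran the other way, at 2.63 and 2.89 in EDHB cells, against 2.29 and 2.54 in untreated cells. The direction for SPRR1A therefore depends on the probe set. The brighter one carries the suffix by which Affymetrix marks probes that can match other transcripts, and SPRR genes are close copies of each other. The probe sets used for SPRR2B, SPRR3 and SERPINB3 carry the same suffix.

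SPRR1B had log2 levels of 3.68 and 3.70 in EDHB cells, against 3.50 and 4.32 in untreated cells, and the groups overlapped. SPRR3 had 4.17 and 4.53 in EDHB cells, against 4.49 and 4.58 in untreated cells. SPRR2B had 3.86 and 4.13 in EDHB cells, against 3.86 and 4.15 in untreated cells. None of these 3 genes had separated groups.

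Involucrin (IVL), the early scaffold of the envelope, had log2 levels of 4.00 and 3.70 in EDHB cells, against 3.92 and 3.79 in untreated cells. The untreated arrays lay between the EDHB arrays, and the 95% interval of the change ran from -0.33 to 0.33. Loricrin (LORICRIN), the main protein of the mature epidermal envelope, had 3.64 and 3.66 in EDHB cells, against 3.73 and 4.01 in untreated cells. Both EDHB arrays were lower for loricrin, at levels under the median probe set, with limma's adjusted p at 0.41. Filaggrin (FLG), which bundles keratin filaments, had 1.83 and 1.95 in EDHB cells, against 1.69 and 1.55 in untreated cells. Both EDHB arrays of FLG were higher, by 0.27 ± 0.09 (SE, n = 2 arrays each; limma's adjusted p 0.249), but all 4 arrays lay far under the median probe set.

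**Figure D2:**
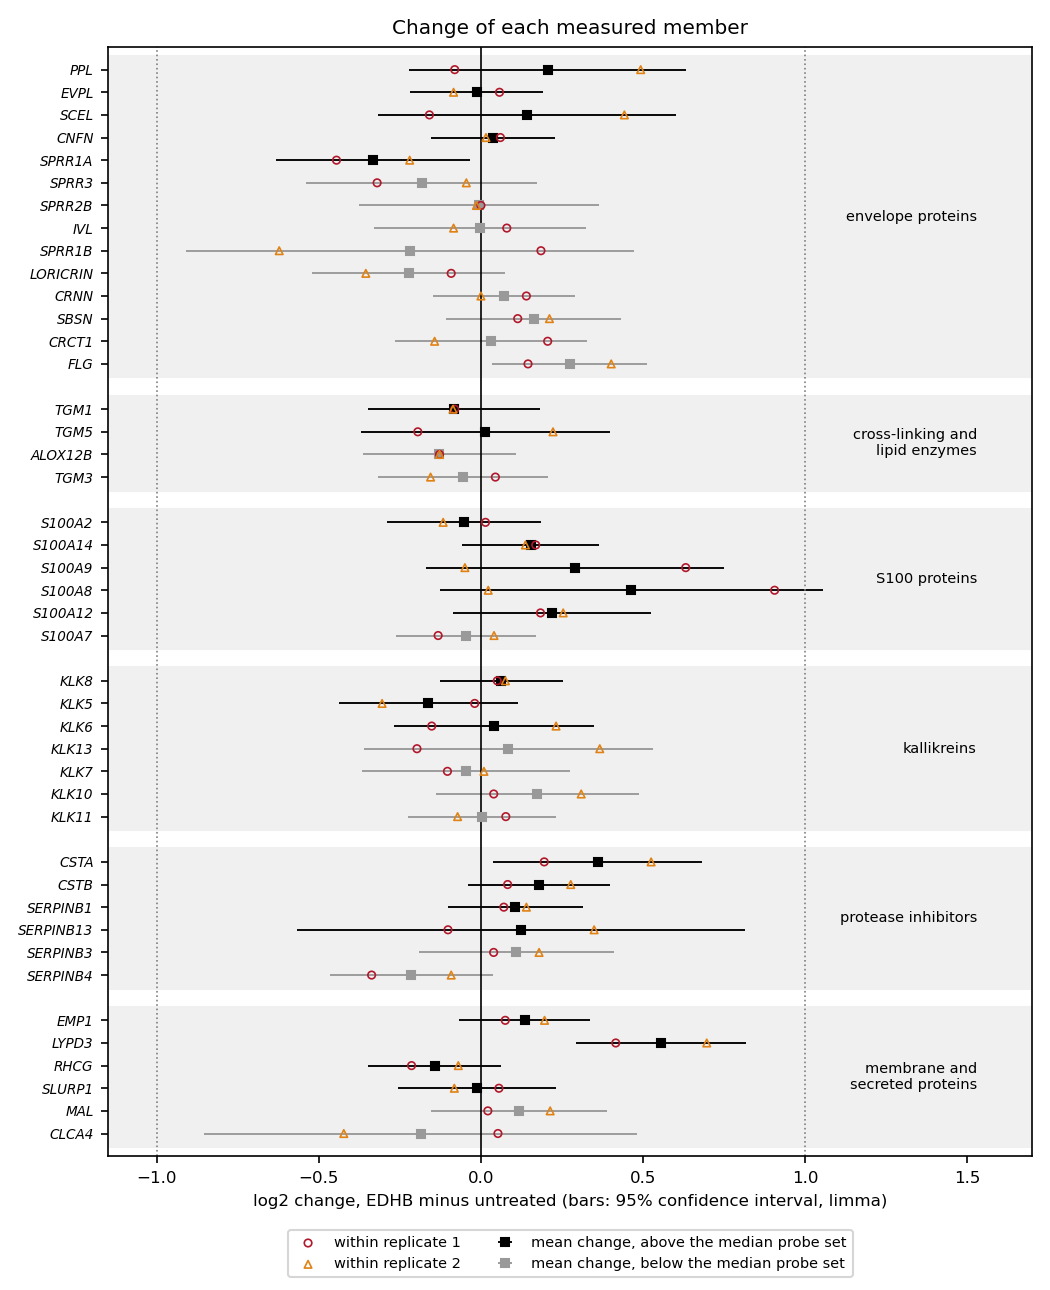
Log2 change, EDHB minus untreated, of the 43 measured genes with 95% intervals from limma, grouped by role; open symbols are the changes within each replicate, grey squares are genes under the median probe set and dotted lines mark 2-fold. LYPD3 has the largest change at 0.56 and SPRR1A the most negative at -0.33, and most intervals include 0.

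The cross-linking and lipid enzymes were 4 genes with log2 changes from -0.13 to 0.01, and the groups overlapped for all 4. Transglutaminase 1 (TGM1), the membrane-bound enzyme that joins envelope proteins, had log2 levels of 5.70 and 5.53 in EDHB cells, against 5.78 and 5.62 in untreated cells. Its change was -0.08, and its sign was the same within both replicates. TGM5, another transglutaminase of keratinocytes, had 4.38 and 4.79 in EDHB cells, against 4.57 and 4.57 in untreated cells, so the untreated arrays lay between the EDHB arrays. TGM3 and ALOX12B, a lipoxygenase that processes barrier lipids, stood under the median probe set on all arrays.

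The S100 genes, which encode small calcium-binding proteins and lie in the epidermal differentiation complex of chromosome 1, were 6 genes with a median log2 change of 0.19. Their median was 0.18 within replicate 1 and 0.03 within replicate 2. For 3 of the 6 (S100A8, S100A12 and S100A14) both EDHB arrays lay above both untreated arrays, beside 23.3% of all genes. S100A12 had log2 levels of 4.66 and 4.90 in EDHB cells, against 4.48 and 4.65 in untreated cells, close to the median probe set. S100A2, whose probe set was the brightest used here, had log2 levels of 13.13 and 13.18 in EDHB cells, against 13.12 and 13.30 in untreated cells. Its EDHB arrays lay between its untreated arrays, and its change was -0.05 ± 0.09 (SE, n = 2 arrays each; limma's adjusted p 0.843). S100A14 had 9.67 and 9.74 in EDHB cells, against 9.50 and 9.60 in untreated cells, a change of 0.15 ± 0.08 (SE, n = 2 arrays each; limma's adjusted p 0.431). The difference for S100A14 was close in size within both replicates, at 0.17 and 0.14.

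S100A8 and S100A9 encode the 2 chains of calprotectin, which is made by inflamed or injured squamous epithelium as well as by myeloid cells. S100A8 had log2 levels of 5.46 and 5.23 in EDHB cells, against 4.55 and 5.21 in untreated cells. S100A9 had 6.38 and 6.18 in EDHB cells, against 5.75 and 6.23 in untreated cells. In both genes, untreated replicate 1 was the low array, and the other 3 arrays stood close together. The change of S100A8 was 0.91 within replicate 1 and 0.02 within replicate 2, and that of S100A9 was 0.63 and -0.05. Neither passed limma's test, with adjusted p at 0.393 for S100A8 and 0.491 for S100A9. A second, dimmer S100A8 probe set had a change of -0.25. Leaving out untreated replicate 1, the change was 0.14 for S100A8 and 0.05 for S100A9. The 3 measured leukocyte markers, CD3E, LYZ and PTPRC, were under the median probe set on all 4 arrays. PTPRC, the pan-leukocyte surface marker CD45, had log2 levels of 2.21 and 2.11 in EDHB cells, against 1.68 and 1.89 in untreated cells. Both EDHB arrays of PTPRC were higher (limma's adjusted p 0.194), both were lower for LYZ, and CD3E overlapped. The summed intensity of the 3 markers was 30.5 and 29.5 in EDHB cells, against 28.2 and 31.3 in untreated cells, and their part in the S100A8 and S100A9 values was not tested.

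The kallikreins, secreted serine proteases that loosen the outermost cells, were 7 genes with log2 changes from -0.16 to 0.17. KLK5, which starts the cascade by cutting other kallikreins, had log2 levels of 5.13 and 5.10 in EDHB cells, against 5.15 and 5.40 in untreated cells. KLK8 had 5.25 and 5.24 in EDHB cells, against 5.20 and 5.16 in untreated cells. Both EDHB arrays were lower for KLK5 and higher for KLK8, by margins as small as 0.02 within a replicate for KLK5. KLK6 overlapped between groups, and KLK7, KLK10, KLK11 and KLK13 had mean levels under the median probe set in both groups. The kallikreins thus showed no shared direction, with 3 of the 7 having the same sign within both replicates.

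Cystatin A (CSTA), an inhibitor of cysteine proteases that is itself built into the envelope, was read by one of the 5 brightest probe sets used here. Its log2 levels were 10.89 and 11.22 in EDHB cells, against 10.70 and 10.69 in untreated cells. Both EDHB arrays were higher, and EDHB replicate 2 was the highest. The change was 0.36 ± 0.13 (SE, n = 2 arrays each), a 1.28-fold higher intensity with a 95% interval from 1.03 to 1.60 fold, and limma's adjusted p was 0.257. Without EDHB replicate 2 the change was 0.20. Cystatin B (CSTB), a related intracellular inhibitor, had 10.64 and 10.72 in EDHB cells, against 10.55 and 10.44 in untreated cells. Both EDHB arrays of CSTB were higher too, by 0.18 ± 0.09 (SE, n = 2 arrays each; limma's adjusted p 0.372), while its second probe set, under the median probe set, had a change of -0.09.

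SERPINB1, an inhibitor of neutrophil-type serine proteases, had log2 levels of 7.03 and 7.13 in EDHB cells, against 6.96 and 6.99 in untreated cells. All 4 SERPINB1 probe sets had a positive change, from 0.02 to 0.15. SERPINB13 had 4.57 and 5.34 in EDHB cells, against 4.67 and 4.99 in untreated cells, and its groups overlapped. The squamous cell carcinoma antigens SERPINB3 and SERPINB4 stood under the median probe set on all arrays, with changes of 0.11 and -0.21. Over the 6 measured inhibitors, the median change was 0.12.

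Among the membrane and secreted proteins, LYPD3 had the largest change of all 43 genes. LYPD3, also called C4.4A, is a lipid-anchored surface protein of the suprabasal layers. Its log2 levels were 7.10 and 7.16 in EDHB cells, against 6.68 and 6.46 in untreated cells. Both EDHB arrays were higher, and the gap between groups was wider than the gap within either. The means were 7.13 ± 0.04 in EDHB cells and 6.57 ± 0.15 in untreated cells (SD, n = 2 arrays each). The change was 0.56 ± 0.10 (SE), a 1.47-fold higher intensity with a 95% interval from 1.23 to 1.76 fold, and it was 0.42 within replicate 1 and 0.70 within replicate 2. The adjusted p of limma was 0.127, and 0.052 when the prior variance followed intensity, so LYPD3 missed the threshold in both fits. It passed in a fit limited to genes above the median probe set, at an adjusted p of 0.0414. In that fit 595 of 12385 genes passed, so passing was not particular to LYPD3.

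EMP1, a membrane protein with 4 spans that is abundant in squamous epithelium, had log2 levels of 10.47 and 10.51 in EDHB cells, against 10.40 and 10.31 in untreated cells. Its brightest probe set was higher by 0.14 ± 0.08 (SE, n = 2 arrays each; limma's adjusted p 0.462), while its 6 probe sets ranged from -0.21 to 0.19. RHCG, an ammonium transporter, had 4.74 and 4.82 in EDHB cells, against 4.95 and 4.89 in untreated cells, so both EDHB arrays were lower, by 0.14 in the mean. SLURP1, a secreted relative of LYPD3, overlapped between groups at 4.83 and 4.65 in EDHB cells, against 4.78 and 4.73 in untreated cells. MAL and CLCA4 stood under the median probe set on all arrays.

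Probe sets of a gene did not always give the same direction. Of the 13 genes with several probe sets, 8 had changes of both signs (CSTB, EMP1, KLK10, KLK13, S100A8, SCEL, SERPINB13 and SPRR1A). Of the 69 probe sets tested with all others on their own, 0 passed limma's adjusted p of 0.05, beside 0 of all 40972 probe sets. An unadjusted p under 0.05 was found for 6 of the 69, beside 15% of all probe sets.

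**Figure D3:**
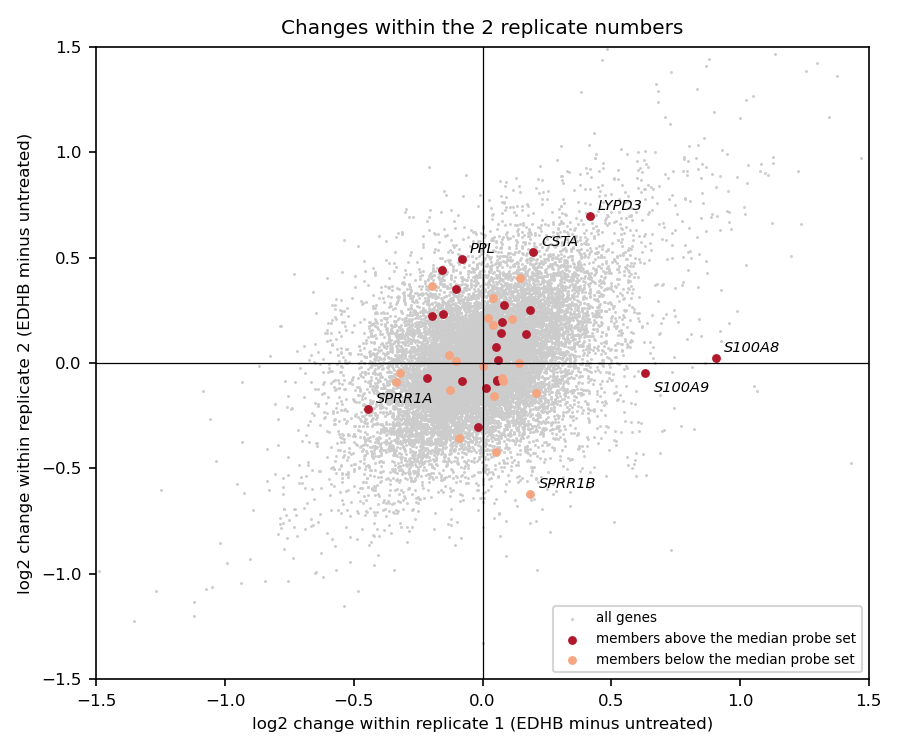
Log2 change within replicate 2 against the change within replicate 1 for the 43 genes, over all genes, of which 26 lie outside the axes. LYPD3 and CSTA are positive on both axes, SPRR1A is negative on both, S100A8 and S100A9 lie along the replicate 1 axis and PPL along the replicate 2 axis.

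Of the 43 genes, 23 had the same sign within both replicates (53.5%), beside 62.1% of all genes. The largest changes of this kind were those of LYPD3, S100A8, CSTA and SPRR1A, though S100A8 was at only 0.02 within replicate 2. The 15 envelope protein and S100 genes on chromosome 1 had a median change of 0.14 within replicate 1 and -0.05 within replicate 2.

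Other genes of the same programme were read from lists taken from general knowledge of the epithelium, and chosen with earlier results of these data known. Of all genes, 23.3% had both EDHB arrays higher and 22.6% had both lower. Of 18 measured further envelope genes, 0 passed the test, 3 had both EDHB arrays higher and 1 had both lower, and the median log2 change was -0.01. Transglutaminase 2 (TGM2) had the largest positive change there, at 0.29, but 0.03 over the mean of its probe sets and 0.14 without EDHB replicate 1. Of 16 measured genes of barrier lipid synthesis, 0 passed, 5 had both EDHB arrays higher and 1 had both lower, and the median was 0.07. ELOVL4, which elongates very long fatty acids, had the largest change of these, at 0.45 ± 0.09 (SE, n = 2 arrays each; limma's adjusted p 0.139). Of 16 further proteases and inhibitors, 0 passed, 8 had both EDHB arrays higher and 4 had both lower. The protease inhibitor SLPI (0.65) and the membrane protease PRSS8 (0.60) were the most positive of them, and SERPINB7 (-0.30) and CST6 (-0.26) the most negative.

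The listed transcription factors that regulate the programme stood apart between the groups more often than not. The list was chosen with earlier results of these data known, so its counts describe it and are no test. Of 16 measured factors of squamous differentiation, 13 had both EDHB arrays above both untreated arrays and 1 had both below, beside 23.3% and 22.6% of all genes. Their median log2 change was 0.40, against 0.04 for the 43 envelope and late differentiation genes, and no test was made of that difference. The lists differ in measurability, with 13 of the 16 factors but 23 of the 43 genes above the median probe set. Among those above it, the medians were 0.42 for the factors and 0.11 for the members. None of the 16 factors passed limma's adjusted p of 0.05, and 5 of the 16 passed when the prior variance followed intensity, beside 2.4% of all genes. GRHL3, a grainyhead factor needed for the epidermal barrier, had log2 levels of 6.88 and 6.40 in EDHB cells, against 5.19 and 5.22 in untreated cells. Its change was 1.44 ± 0.17 (SE, n = 2 arrays each), with limma's adjusted p at 0.083 and at 0.021 with the intensity trend. The others of the 5 were PPARD (0.78), KLF4 (0.66), ELF3 (0.61) and CEBPB (0.43), with adjusted p from 0.107 to 0.155 in limma without the trend. Over the mean of its probe sets, PPARD was at 0.37. SOX2, a factor of the basal and progenitor state, had a change of -0.16, and VDR, the vitamin D receptor, had -0.01.

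**Figure D4:**
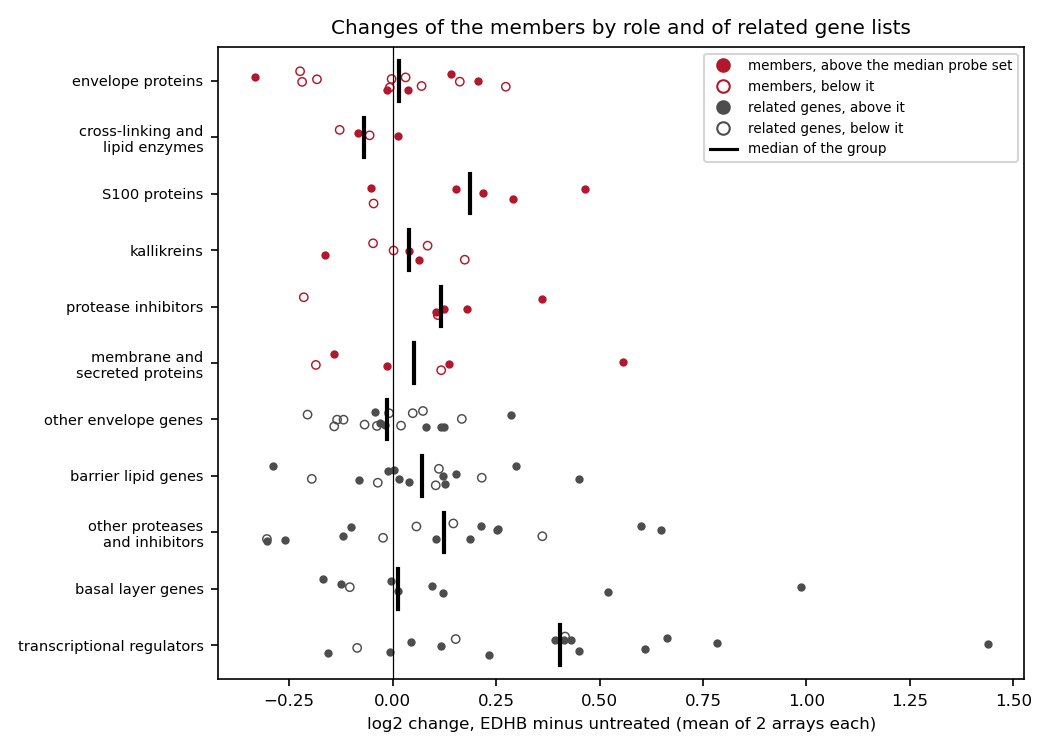
Log2 change, EDHB minus untreated, of each measured gene by list, for the roles of the 43 genes and the related lists, with a bar at each list's median. The transcription factors have a median of 0.40, while the medians of the 6 roles lie between -0.07 and 0.19. Each of these medians includes genes under the median probe set.

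Basal layer genes, which precede the programme, were 9 measured genes with a median log2 change of 0.01, and 0 of them passed. Of the 9, 3 had both EDHB arrays higher and 0 had both lower, beside 23.3% and 22.6% of all genes. LAMB3 had a change of 0.52 ± 0.21 (SE, n = 2 arrays each; limma's adjusted p 0.307), and ITGB4 had the most negative, at -0.17. Keratin 15 (KRT15) had 8.80 and 9.50 in EDHB cells, against 8.31 and 8.01 in untreated cells, a change of 0.99 ± 0.25 (SE, n = 2 arrays each; limma's adjusted p 0.176). The squamous markers KRT5, SFN, PERP and DSG3 stood above the median probe set, and KRT14 stood under it on all arrays. Of 5 fibroblast markers, COL1A1 stood above the median probe set and the other 4 under it on all arrays, and of 3 endothelial markers PECAM1 stood above it. The summed intensity of the fibroblast markers was 112 and 122 in EDHB cells, against 120 and 127 in untreated cells, and overlapped between groups.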

How the data were processed

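Per the labels' protocols, biotin-labelled RNA was read on Affymetrix arrays, 2 for each group. The authors deposited linear intensities per probe set. The submitters' processing notes name RMA, and its software, version and genome build are not given in the sources used here. This method equalises the distributions of the arrays, so a global difference would not be seen. The intensities, between 1.55 and 13393, were put on the log2 scale without a pseudocount. Precision is limited by the number of arrays.

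The replicate 2 columns stood in another row order. It was inferred to be that of a sheet sorted into 2-fold higher, 2-fold lower and other probe sets, each in ID order. A forward-backward alignment on untreated levels (Student's t density, scale 0.15, 3 degrees of freedom) restored 54467 of 54613 rows (99.7%) at a posterior of at least 0.95. Strongly changed rows were restored less often. Of the 193 rows in the replicate 2 lists of 2-fold changes, 118 were restored. Of the 118 probe sets past 2-fold within replicate 1, 17 were not restored. The values over all genes thus leave out part of the most changed probe sets. Changes with EDHB correlated between replicates across probe sets at 0.0438 as deposited and 0.378 once restored; probe sets are not independent replicates, and the 2-fold lists use these changes.

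Probe sets were named from GEO's platform annotation, in which 41091 listed 1 gene, 1801 several and 11721 none. Symbols were checked by gene ID against RefSeq; 54 identifiers had no match. The brightest restored probe set stood for each of 19752 genes. The groups were compared by lmFit and eBayes of limma (version 3.58.1, under R 4.3.3), with Benjamini-Hochberg adjustment over all genes. The fit was also run on simulated data with the same spread for every gene. That run cannot show how the fit behaves where the spread differs between genes. Values for all arrays were given for the 5 brightest members and for those above the median probe set with a change of at least 0.4 in size and 1 sign in both replicates; PPL, S100A9, SPRR1A, FLG, KLF4, ELF3, CEBPB and the other members' values were chosen after they were seen, as was the choice of promoters. Of each related list, the 2 largest changes each way among genes above the median probe set were eligible. The members and lists were chosen with earlier results of these data known. Alternatives were the variance trend, the dim filter, the choice of probe set, the posterior minimum, centring, cyclic loess, an added intensity of 16, the replicate block and leaving out each array.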

Additional observations from a re-analysis of the deposited data

How the results depend on the processing

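The count of genes past an adjusted p of 0.05 depended strongly on the setting. It was 2 in the reported fit, 475 with the variance trend and 595 among the 12385 genes above the median probe set. It was 51 with the mean of a gene's probe sets, 43 with centred arrays, 59 after cyclic loess and 161 with 16 added to the intensity. It was 0 with each probe set alone, with a posterior minimum of 0.5, with the replicate block, and without each array in turn (0 to 0). Of settings chosen after seeing the data, the trend with centred arrays gave 965 and the trend with the replicate block gave 0. The count of members past the threshold was 0 in the reported fit and 1 (LYPD3) in 2 settings, above the median probe set (adjusted p 0.0414) and the trend with centred arrays (0.0271). It was 0 in the others, and 0 to 0 without each array in turn. LYPD3 stayed positive in all settings run, at 0.42 (the replicate 1 pair alone) to 0.67, with adjusted p from 0.0271 to 0.571 where it was tested. The members' median change of 0.04 became 0.11 above the median probe set, 0.014 with the mean of probe sets, and 0.0097 to 0.092 without each array in turn. With the replicate block the median was 0.04. Same-numbered arrays share only a number, and their deviations correlated at 0.09 over 2 pairs.

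Some directions turned, among them that of the most negative member. SPRR1A became 0.0076 with the mean of its probe sets, which differ in sign. In the replicate 1 pair alone, PPL was -0.081, S100A2 0.014 and CERS2 0.033, and VDR was 0.0033 after loess. Leaving out each array in turn, the change of PPL ran from -0.027 (without untreated replicate 2) to 0.44, and that of S100A2 from -0.14 to 0.037 (without untreated replicate 2). Among the related genes these ranges were -0.018 to 0.27 for LCE1E, -0.096 to 0.012 for SPRR2G, -0.067 to 0.0053 for S100A16, -0.21 to 0.047 for CERS2 and -0.076 to 0.063 for VDR. Without EDHB replicate 1, SLPI was 0.43, SERPINB7 -0.13 and CST6 -0.13, and without EDHB replicate 2 KRT15 was 0.63. Beyond the construction of each setting, the cause was not tested.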
